A study of Homo sapiens with 24 samples.

Results

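The genes described here are 10 of the 21386 counted in each library, chosen by name because they are the textbook genes of the epithelial-mesenchymal transition (EMT) and of cell junctions. They were the transcription factors SNAI1 (Snail), SNAI2 (Slug), ZEB1, ZEB2 and TWIST1, the cadherins CDH1 (E-cadherin) and CDH2 (N-cadherin), the intermediate filament gene VIM (vimentin), and the junction genes CTNNB1 (beta-catenin) and TJP1 (ZO-1). All 10 passed the filter on low counts in every comparison. RNA of the melanoma line A375 and of the lung adenocarcinoma line A549 was sequenced in 24 libraries, which form 4 groups of 3 replicates in each line. The shMCM7 cells carried a doxycycline (Dox) inducible shRNA against the replication licensing gene MCM7 in the lentiviral vector pRSIT17 (MOI 1.4) and were puromycin-selected populations. The parental cells carried no shRNA. Both kinds of cell were grown in DMEM with serum, either treated with Dox (1 μg/ml) over 72 hours or left untreated (noDox). In all 8 groups a double thymidine block had been applied to synchronize the cells. The study's methods call the replicates biological, but the labels do not say whether they were separate cultures, and the p-values measure only the spread between these libraries. In bulk RNA, fewer cells of a state and less RNA per cell cannot be told apart.

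EMT is the loss of epithelial junctions and the gain of a motile, mesenchymal cell form. The Snail and ZEB zinc finger proteins bind E-box sequences and repress CDH1, and Twist proteins act in the same programme through the broader E-box of basic helix-loop-helix factors. E-cadherin is bound at the membrane by beta-catenin, which also serves as a transcription co-activator of the Wnt pathway, while ZO-1 links tight junctions to actin. In melanocytic cells, which come from the neural crest and not from an epithelium, ZEB2 and SNAI2 are known from the differentiated state and ZEB1 and TWIST1 from the dedifferentiated state.

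In the A375 libraries the totals were 146656792 to 283721575 counts, and in the A549 libraries 17911338 to 23452823 counts. Levels are given as CPM, read counts scaled to library size with TMM factors over all 24 libraries. A count of 3 stood at 0.0104 to 0.0202 CPM in A375 and 0.132 to 0.168 CPM in A549. SOX10, a neural crest factor of melanocytic cells, ranged from 487 to 657 CPM in A375 and had 0 counts in A549, whereas the pigment genes MLANA and TYR were at or near 0 in both lines. Of the other melanocyte markers, S100B was at 24.4 to 34.3 CPM in A375 and at 0 in A549. PMEL was at 1.895 to 5.08 CPM in A375 and 0.325 to 2.09 CPM in A549. DCT and TYRP1 reached 0.617 and 0.720 CPM in A375 and 0.0525 and 0.165 CPM in A549. MITF was not higher in A375, at 26.0 to 43.9 CPM against 36.3 to 53.3 CPM in A549. The keratin KRT7 was at 1738 to 2404 CPM in A549, but the lung lineage factor NKX2-1 reached only 0.0549 CPM there. MCM7 was at 74.4 to 76.1 CPM in the A375 shMCM7 Dox libraries, and at 128, 342 and 349 CPM in replicates 1 to 3 of A375 shMCM7 noDox, so replicate 1 stood apart. In A549 the MCM7 counts went against the labels. The libraries labelled shMCM7 Dox 3, shMCM7 noDox 2 and parental noDox 2 had 98.2, 102 and 92.4 CPM, while MCM7 ranged from 305 to 346 CPM in the remaining 9, among them the libraries labelled shMCM7 Dox 1 and 2.

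The sequences below show what the shRNA reads and what the EMT factors read. The labelled target of the shRNA is 21 bases long and was found whole in 5 MCM7 transcripts of GENCODE 29 and in transcripts of no other gene. The capitals mark the match to bases 2 to 8 of the guide strand.
shMCM7 target: cagaggaggatttCTACGAAa
This match of 7 bases occurred in the longest 3′UTR of 0 of the 10 genes, against 226 of the 19059 counted genes with an annotated 3′UTR (1.19%).

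The E-box bound by the Snail and ZEB proteins is CAGGTG, which reads CACCTG on the other strand. It was searched on both strands in RefSeq promoter windows (GRCh38.p14), each from 250 bases before to 50 bases after a transcription start. Windows were at hand for ZEB1, ZEB2, VIM, CTNNB1, TJP1 and CDH2 and not for CDH1, SNAI1, SNAI2 and TWIST1. The motif was present in 3 of the 16 windows of these 6 genes (18.8%) and in 20.6% of all 35116 windows, so its share among the members was near the background. The windows that held it belonged to ZEB1 and TJP1, and those of ZEB2, VIM, CTNNB1 and CDH2 held none. The sites are shown with up to 12 bases on each side and the E-box in capitals.
ZEB1, chr10:31318348-31318377, plus strand: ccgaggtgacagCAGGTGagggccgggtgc
ZEB1, chr10:31318966-31318991, plus strand: ccccaccaCACCTGaggaaaactttt
ZEB1, chr10:31319119-31319148, plus strand: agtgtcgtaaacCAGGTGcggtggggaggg
ZEB1, chr10:31319237-31319265, plus strand: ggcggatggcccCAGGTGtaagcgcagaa
TJP1, chr15:29969120-29969149, minus strand: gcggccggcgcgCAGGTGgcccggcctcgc
The last 3 of the ZEB1 sites lie within one window, from 242 bases before to 34 bases after its start. A match to the motif is a description of the sequence, and binding was not measured.

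The first comparison asked whether the EMT genes move in arrested A375 cells when MCM7 is knocked down. With Dox, 5 of the 10 genes rose and 1 fell in A375 shMCM7 cells at an FDR (Benjamini-Hochberg, edgeR quasi-likelihood test) under 0.05, but each by less than 1.5-fold. ZEB1, ZEB2, TWIST1, CDH2 and TJP1 were higher and SNAI1 was lower. At this threshold 42.9% of all 16087 genes tested passed, so the share of the members was not far above the background. Under the stricter rule of a fold change of at least 1.5, p under 0.01 and FDR under 0.05, here a call, 0 of the 10 genes were called, against 12% of all genes. All 10 log2 fold changes, with a median of 0.21 against 0.0045 over all genes, lay between -0.72 and 0.37. By DESeq2, 6 of the 10 passed the FDR threshold as well and 0 were called, and the share over all genes in that fit is not given here.

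SNAI1 encodes Snail, a direct repressor of CDH1. In A375 shMCM7 cells it was at 19.1, 17.2 and 18.7 CPM with Dox and at 24.2, 21.0 and 22.9 CPM without. Every Dox library lay below every noDox library. SNAI1 fell by 0.33 on the log2 scale (SE 0.071, FDR = 0.00502). In parental cells it was at 25.5, 27.8 and 27.5 CPM with Dox and at 25.1, 21.5 and 24.8 CPM without, a log2 difference of 0.18 in the other direction that did not pass (SE 0.072, FDR = 0.649). Among the 10 genes SNAI1 was thus the only one to fall past the FDR threshold in the knock-down, while the other Snail gene, SNAI2, had a positive estimate.

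SNAI2 encodes Slug, a Snail relative that neural crest cells also use. Its levels were low and spread out, with 1.84, 1.48 and 1.47 CPM with Dox and 1.62, 1.105 and 0.942 CPM without. The groups overlapped through noDox replicate 1, the library in which MCM7 was partly low. The log2 fold change of 0.37 (SE 0.20) did not pass (FDR = 0.153). With the replicate number as a block in the fit it was 0.39 and passed (FDR = 0.0278). Without noDox replicate 1 it was 0.63 with an FDR of 0.0114 and SNAI2 was then called. In parental cells the log2 difference with Dox was 0.15 and did not pass (FDR = 0.882). The Dox effect in shMCM7 cells minus that in parental cells was 0.22 (SE 0.28) and did not pass (FDR = 0.585). Without shMCM7 noDox replicate 1 that difference was 0.48 and did not pass either (FDR = 0.156).

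ZEB1 and ZEB2 encode related zinc finger and homeodomain repressors of CDH1. ZEB1 was at 37.0, 34.9 and 34.4 CPM with Dox and at 27.3, 29.3 and 29.9 CPM without (log2 fold change 0.28, SE 0.059, FDR = 0.00431). ZEB2 was at 29.2, 30.9 and 28.6 CPM with Dox and at 23.6, 24.0 and 22.5 CPM without (log2 fold change 0.32, SE 0.061, FDR = 0.00254). Neither gene's groups overlapped, and both rose, about as much as each other. In parental cells the log2 differences with Dox were 0.087 for ZEB1 and -0.080 for ZEB2, and neither passed (FDR = 0.826 and 0.839).

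TWIST1 encodes a basic helix-loop-helix factor of mesoderm and neural crest. It was at 10.4, 7.87 and 9.45 CPM with Dox and at 7.32, 6.48 and 7.73 CPM without. The lowest Dox library was barely above the highest noDox library. The log2 fold change was 0.34 (SE 0.11, FDR = 0.0286), and the FDR was above 0.05 without Dox replicate 1 (0.0878), Dox replicate 3 (0.0817) or noDox replicate 2 (0.113).

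**Figure D1:**
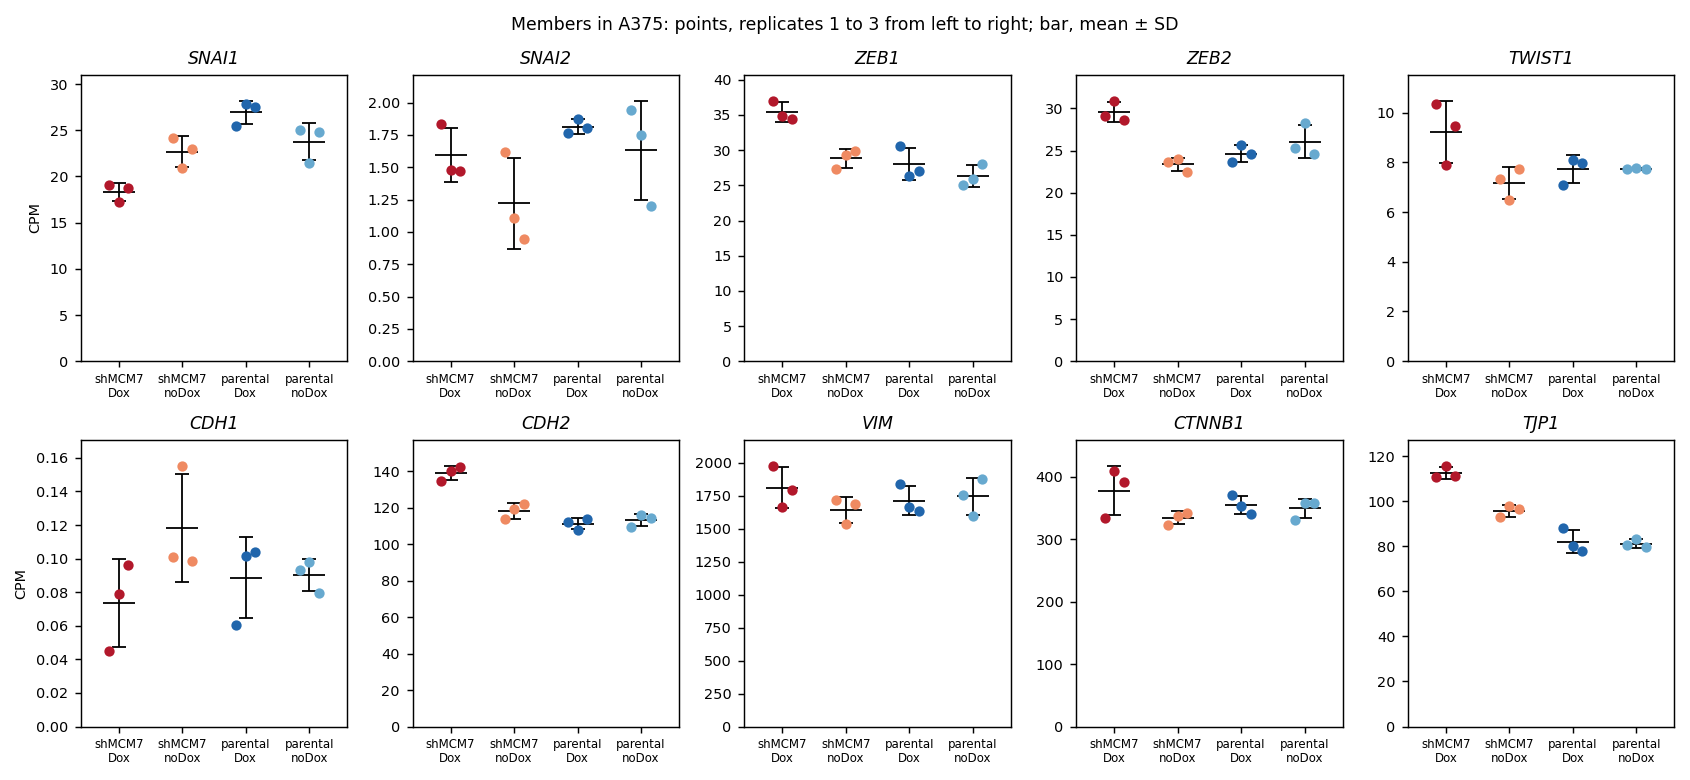
CPM of each gene (vertical axis, from 0) in the 4 groups of A375 libraries (horizontal axis). Points are replicates 1 to 3 from left to right and the bar is the mean ± SD (n = 3). The shMCM7 Dox libraries lie below all others for SNAI1 and above all others for CDH2, ZEB1, ZEB2 and TJP1.

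CDH1, the E-cadherin gene whose loss is a hallmark of EMT, was almost silent in A375 parental cells with and without Dox. It had 9 to 26 counts in the parental libraries, on average 0.0887 ± 0.0242 CPM with Dox and 0.0902 ± 0.00933 CPM without (SD, n = 3 each). In shMCM7 cells it was at 0.0450, 0.0790 and 0.0963 CPM with Dox and at 0.101, 0.155 and 0.0988 CPM without. These groups did not overlap, but the log2 fold change of -0.72 had an SE of 0.35 and did not pass (FDR = 0.127). Single libraries moved this value, to -0.42 without Dox replicate 1, -0.49 without noDox replicate 2 and -0.99 without Dox replicate 3. The shMCM7 noDox libraries also lay above the parental noDox libraries (log2 fold change 0.38, FDR = 0.597). The shMCM7 Dox libraries overlapped the parental Dox libraries (-0.36, FDR = 0.452).

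CDH2 encodes N-cadherin, the cadherin of mesenchymal and neural crest cells. It was at 135, 140 and 142 CPM with Dox and at 114, 119 and 122 CPM without, again with no overlap. CDH2 rose by a log2 fold change of 0.21 (SE 0.053, FDR = 0.00973), while in parental cells the difference was -0.024 (FDR = 0.941). VIM, the vimentin filament gene, was by far the most abundant of the 10. It was at 1976, 1668 and 1790 CPM with Dox and at 1714, 1533 and 1687 CPM without, and the groups overlapped (log2 fold change 0.12, SE 0.072, FDR = 0.201).

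CTNNB1 was at 333, 408 and 391 CPM with Dox and at 323, 337 and 343 CPM without. Replicate 1 with Dox lay among the noDox libraries. The log2 fold change of 0.16 (SE 0.079) did not pass (FDR = 0.133), and without that library it was 0.25 with an FDR of 0.00551. TJP1 was at 111, 116 and 111 CPM with Dox and at 93.0, 98.0 and 96.4 CPM without, and it rose by a log2 fold change of 0.22 (SE 0.050, FDR = 0.00760). In total, the 2 groups of A375 shMCM7 libraries did not overlap for 7 of the 10 genes, against 55.1% of the 16076 genes with a mean of at least 10 counts.

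Dox in parental cells is the control of this comparison for the drug. No library came from cells with a non-targeting shRNA, so effects of the vector or of shRNA expression were not controlled for. In A375 parental cells 0 of the 10 genes passed the FDR threshold with Dox by edgeR or by DESeq2, and 1 of them, SNAI1, had an unadjusted p under 0.05 (0.0281). Of all 15993 genes tested, 0% passed under either rule, 1121 had an unadjusted p under 0.05, and DESeq2 called 2. The difference between the Dox effect in shMCM7 cells and that in parental cells was tested as an interaction over the 12 A375 libraries. It passed the FDR threshold for 3 of the 10 genes, SNAI1 (-0.51 on the log2 scale, SE 0.10, FDR = 0.00235), ZEB2 (0.40, SE 0.090, FDR = 0.00474) and CDH2 (0.23, SE 0.066, FDR = 0.0168). The background was 30.0% of 16334 genes, and 0 of the 10 genes but 10.5% of all genes were called. For CDH2 the FDR was 0.0509 without parental Dox replicate 2. TJP1 (0.20, FDR = 0.0556), TWIST1 (0.34, FDR = 0.0698) and ZEB1 (0.19, FDR = 0.138) missed the threshold, so a Dox effect that differs from that of parental cells was not shown for them. By DESeq2, TJP1 and TWIST1 passed too (FDR = 0.0414 and 0.0423), and with a replicate block TJP1 passed (FDR = 0.0487).

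The shRNA cells were also compared with parental cells under the same treatment. Without Dox, 1 of the 10 genes passed the FDR threshold, TJP1, with 93.0 to 98.0 CPM in shMCM7 cells and 79.6 to 83.4 CPM in parental cells (log2 fold change 0.24, SE 0.045, FDR = 0.0186). It no longer passed without shMCM7 noDox replicate 2 (FDR = 0.1003) or 3 (0.0673) or parental noDox replicate 1 (0.0594) or 3 (0.0721). The background was 2.97% of 16093 genes, and 0 members and 1.65% of all genes were called. In this comparison the same-numbered libraries deviated together, and 4 genes passed when the fit blocked on the replicate number: TJP1 (0.24, FDR = 0.000275), SNAI2 (-0.42, FDR = 0.0204), ZEB2 (-0.15, FDR = 0.0342) and ZEB1 (0.13, FDR = 0.0489). This blocked fit called 484 of all genes in place of 266. The share of all genes past the FDR threshold in the blocked fit is not given here. The 4 members therefore cannot be set against the 2.97% of the fit without a block. TJP1 was therefore higher in the shRNA cells before induction as well as after it.

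With Dox, the shMCM7 cells differed from the parental cells in 5 of the 10 genes. These libraries are shared with the comparisons above. CDH2 (0.30, SE 0.050, FDR = 0.00104), ZEB1 (0.32, SE 0.068, FDR = 0.00377), ZEB2 (0.25, SE 0.062, FDR = 0.00954) and TJP1 (0.44, SE 0.058, FDR = 0.000297) were higher on the log2 scale. SNAI1 was lower by the largest margin of the 5, with a log2 fold change of -0.57 (SE 0.065, FDR = 0.000123) that lay just short of 1.5-fold. It was called without shMCM7 Dox replicate 1 or 3 or parental Dox replicate 1, and its estimates without any single library ranged from -0.61 to -0.53. TWIST1 did not pass (0.24, FDR = 0.0880), nor did SNAI2, whose estimate was negative here (-0.20, FDR = 0.206). At the FDR threshold 48.0% of 16086 genes passed, and 0 of the 10 members and 16.0% of all genes were called.

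**Figure D2:**
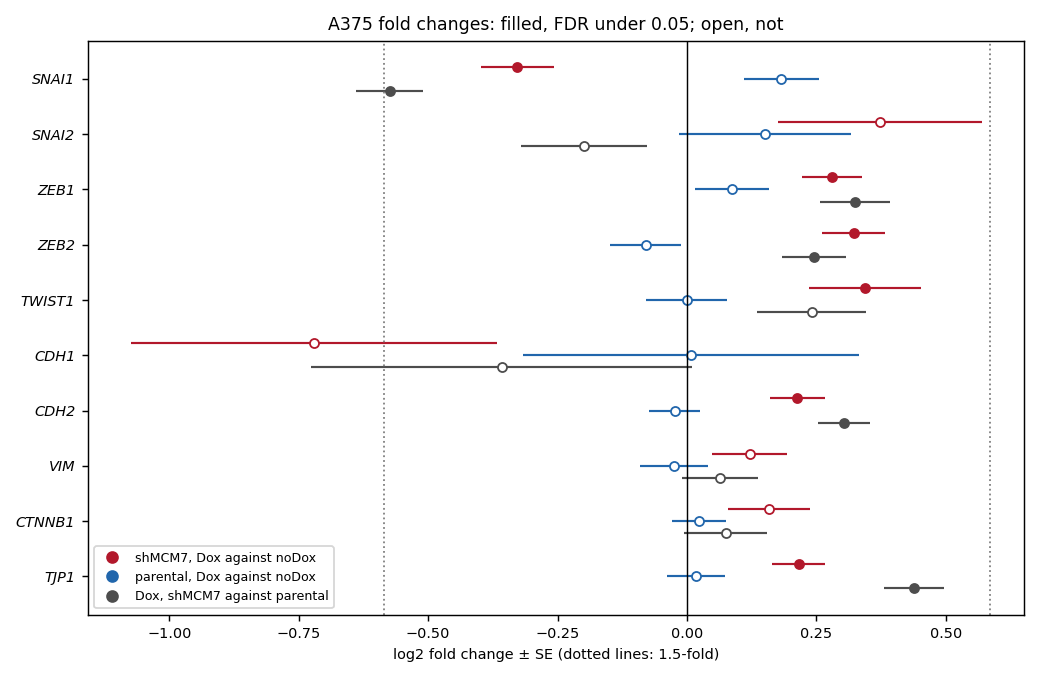
Log2 fold change ± SE (horizontal axis) of each gene in 3 comparisons of A375 groups with 3 libraries each. Filled points passed an FDR of 0.05 and open points did not. Dotted lines mark 1.5-fold. No filled point lies beyond the dotted lines, SNAI1 is the only gene with filled points on the left, and all points of parental cells are open.

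The wider EMT and junction pathway in A375 shMCM7 cells is given from lists of named genes, counting calls against the 12% background. Of 22 intermediate filament and mesenchymal surface genes tested, 5 rose and 0 fell, with a median log2 fold change of 0.24. Among them were the growth factor receptor PDGFRB (0.84), the actin-binding TAGLN (0.81), the receptor kinase AXL (0.77) and the ectonucleotidase NT5E (0.63). Without noDox replicate 1, 7 rose and 0 fell. VIM, which belongs with these genes by function, did not pass.

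Junction genes moved in both directions. Of 9 desmosome genes, 3 fell and 0 rose, namely desmoplakin DSP (-0.91), desmoglein DSG2 (-0.72) and plakophilin PKP3 (-0.62), with a median of -0.54. Of 26 tight junction genes, LSR (-1.94), CLDN4 (-0.99) and F11R (-0.92) fell and CGN rose (0.79), with a median of 0.067. LSR, a protein of tricellular junctions, had 1.04, 0.722 and 0.837 CPM with Dox and 2.49, 3.48 and 3.94 CPM without. The scaffold TJP1 thus rose slightly while these 3 membrane proteins of the tight junction fell. Of 20 adherens junction genes, JUP (-0.66) and NECTIN1 (-0.61) fell and CDH5 rose (2.85), with a median of 0.098. CDH5, the cadherin of endothelium, went from 0.865, 1.03 and 0.612 CPM to 6.39, 6.44 and 5.44 CPM, while the endothelial markers PECAM1 and VWF were not called.

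Among factors that keep epithelial genes on, EHF (-0.87), GRHL3 (-0.77) and GRHL1 (-0.70) fell and KLF4 (0.65) rose, 4 of 10 tested, with a median of -0.26. Among epithelial keratins and surface markers, KRT14 (-1.22), KRT19 (-1.10) and SPINT1 (-0.95) fell and EPCAM (1.05) rose, 4 of 16. Of these, KRT19 had only 12 to 38 counts in any of the 6 libraries, and EPCAM was low throughout A375, at 0.267 to 0.830 CPM. Among 16 other EMT transcription factors, SIX2 (-1.45) fell, and HMGA2 (0.67) and SOX9 (0.59) rose. SIX2 had 13 to 73 counts. Without noDox replicate 1, 1 of the other EMT transcription factors rose and 2 fell.

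Of 22 stability and co-repressor genes of Snail, Twist and ZEB, 3 rose and 0 fell. The 3 were the lysyl oxidases LOXL3 (0.85) and LOXL2 (0.66), which are known to act on Snail, and the kinase gene GSK3B (0.74). Its kinase marks Snail and beta-catenin for degradation. GSK3B was also the only gene called among 19 for beta-catenin turnover. In the beta-catenin target and partner list, 5 of 17 fell and 2 rose, with a median of -0.17. TCF7 (-1.80), AXIN2 (-1.58), NKD1 (-1.26), RNF43 (-1.18) and NKD2 (-0.78) fell, and CCND1, the cyclin D1 gene, rose (1.19). Without noDox replicate 1, 3 of these fell and 2 rose. CTNNB1 itself did not pass. AXIN2, RNF43 and NKD2 were below 1 CPM in all 6 libraries. Of 35 TGF-beta pathway genes 4 rose and 4 fell, among them the ligand TGFB2 (1.16), the receptor TGFBR2 (0.84) and the antagonist NOG (0.98) upwards, and TGFB1 (-0.75), LTBP1 (-0.71) and TGFB3 (-0.71) downwards.

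The interaction with parental cells was also read for these lists, where 10.5% of all genes were called. A gene is counted as rising here when its Dox effect was higher in shMCM7 than in parental cells, and as falling when it was lower. Of the mesenchymal list 4 rose and 0 fell, of the desmosome list 0 rose and 2 fell, and of the tight junction list 1 rose and 3 fell. In the adherens junction list 1 rose and 2 fell, among factors that keep epithelial genes on 1 and 2, and among keratins and surface markers 1 and 3. For the other EMT transcription factors 0 rose and 2 fell, for the stability and co-repressor list 3 and 0, and for beta-catenin turnover 1 and 0. For beta-catenin targets and partners the counts were 2 and 4, and for the TGF-beta pathway 3 and 4. Among the genes named above, the interaction missed an FDR of 0.05 for PKP3 (0.0615), TAGLN (0.0639), KRT19 (0.0814), RNF43 (0.0832), EHF (0.120) and SOX9 (0.145).

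Because the A549 libraries went against their labels in MCM7, the A549 comparisons by label are given for completeness, and then each library's level is set beside its MCM7 level. By label, 0 of the 10 genes passed in shMCM7 cells, where 0% of 13550 genes passed under either rule, 61 genes had an unadjusted p under 0.05, and DESeq2 called 0. By label, 0 of the 10 passed in parental cells, where 0% of 13494 genes passed under either rule, 1137 had an unadjusted p under 0.05, and DESeq2 called 9. Of the members, SNAI2 in parental cells had the largest difference by label, with a log2 fold change of -2.20 (FDR = 0.506 by edgeR). In these cells SNAI2 was at 0.655, 0.4005 and 0.315 CPM with Dox and at 0.602, 3.61 and 2.22 CPM without. It is the noDox libraries that differ from each other here.

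In the libraries labelled shMCM7 Dox 3, shMCM7 noDox 2 and parental noDox 2, in that order, CDH2 was at 68.1, 76.1 and 83.1 CPM. CDH2 was lower in each of the other 9, at 35.8 to 42.0 CPM. TJP1 was at 356, 320 and 359 CPM in the 3 libraries and at 221 to 251 CPM in the other 9. Neither gene's ranges overlapped.

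VIM was at 1308, 1301 and 1241 CPM, against 1048 to 1144 CPM in the other 9 libraries. SNAI2 was at 3.65, 4.03 and 3.61 CPM, against 0.315 to 2.22 CPM. SNAI1 was at 1.495, 2.04 and 1.83 CPM, below the 2.36 to 4.53 CPM of the other 9. SNAI1 was the one gene of the 10 for which these 3 libraries lay below all others, and it was the one that fell past the FDR threshold in A375 shMCM7 cells. SNAI1 and SNAI2 rest on 34 to 94 and 6 to 83 counts per A549 library.

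The other 5 genes overlapped. ZEB1 was at 36.4 to 38.2 CPM in the 3 libraries and at 25.5 to 37.2 CPM in the others, where the library labelled shMCM7 Dox 1 was the highest. ZEB2 was at 9.95 to 11.03 CPM, against 5.93 to 10.0 CPM, and TWIST1 at 2.16 to 2.77 CPM, against 0.880 to 2.58 CPM. CDH1 was at 81.8, 77.3 and 98.2 CPM, against 56.5 to 78.7 CPM, and CTNNB1 at 285, 305 and 337 CPM, against 258 to 304 CPM. CDH1 was thus not low in the libraries with high CDH2. The 3 libraries lay all above or all below the other 9 for 5 of the 10 genes and for 39.0% of the 13497 genes with a mean of at least 10 counts, and no test was made between them, since they share no label.

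The comparison by label in shMCM7 cells was also fitted without the 4 A549 libraries whose MCM7 level goes against their label, which left a single shMCM7 Dox library. The log2 differences were then 0.79 for CDH2, 0.60 for TJP1, 0.27 for VIM, -0.95 for SNAI1 and 1.53 for SNAI2. The directions for these genes follow from the levels above. Of the genes that overlapped, ZEB2 was at 0.44, CDH1 at 0.39, ZEB1 at 0.27 and TWIST1 at 0.058. All these differences are given with no test, because the libraries were left out by their measured MCM7 level and the remaining Dox library is 1 of the 3 described above.

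**Figure D3:**
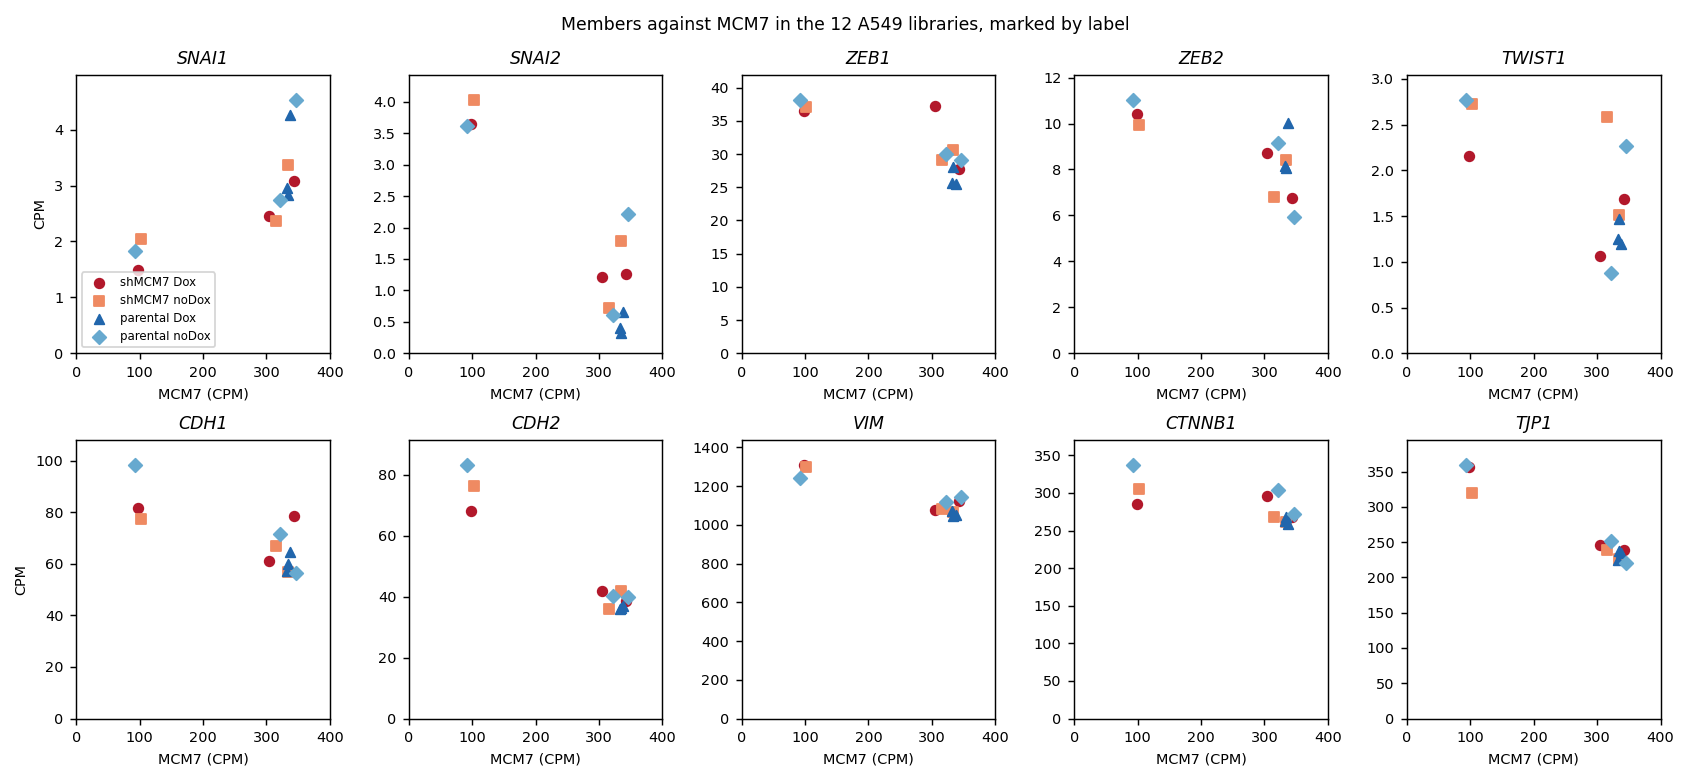
CPM of each gene (vertical axis, from 0) against CPM of MCM7 (horizontal axis) in the 12 A549 libraries, with a colour and marker for each labelled group. The 3 libraries with about 100 CPM of MCM7 carry 3 different labels and are the highest for CDH2, VIM, SNAI2 and TJP1 and the lowest for SNAI1.

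The lines were then compared over the 6 parental libraries of each. Line and sequencing depth, which was far higher in A375, cannot be told apart here. The A549 libraries include the one labelled parental noDox 2, in which MCM7 was low (92.4 CPM). Of the 6 it had the highest level of CDH1, CDH2, VIM, SNAI2, ZEB1, ZEB2, TWIST1, CTNNB1 and TJP1 and the lowest of SNAI1. The A549 ranges below are therefore not those of libraries with normal MCM7 alone. Of the 10 genes, 5 were called higher in A375 and 2 lower, against 59.5% of 15986 genes called in either direction, and 9 passed the FDR threshold, against 85.0%. CDH1 ranged from 0.0607 to 0.104 CPM in A375 and from 56.5 to 98.2 CPM in A549 (A375 against A549: log2 fold change -9.54, SE 0.17, FDR = 5.8e-14). TJP1 was lower in A375 as well, at 78.1 to 87.9 CPM against 221 to 359 CPM (-1.67, SE 0.094, FDR = 2.2e-09). These 2 genes of epithelial junctions were the only members called lower in the melanoma line.

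Of the transcription factors, SNAI1 differed most, with 21.5 to 27.8 CPM in A375 and 1.83 to 4.53 CPM in A549 (2.96, SE 0.16, FDR = 1.9e-09). TWIST1 had 7.07 to 8.09 CPM against 0.880 to 2.77 CPM (2.24, SE 0.18, FDR = 9.7e-08), and ZEB2 had 23.7 to 28.3 CPM against 5.93 to 11.03 CPM (1.51, SE 0.12, FDR = 5.1e-08). ZEB1 was at a similar level in both lines, at 25.1 to 30.6 CPM and 25.5 to 38.2 CPM, and did not pass (-0.14, SE 0.072, FDR = 0.0942). SNAI2 ranged from 1.202 to 1.95 CPM in A375 and from 0.315 to 3.61 CPM in A549 (0.78, SE 0.34, FDR = 0.0466) and was not called. Without the library labelled A549 parental noDox 2, in which MCM7 was low, its log2 fold change was 1.11 with an FDR of 0.00247, and it was called. Its FDR was above 0.05 without any 1 of A549 parental Dox replicates 2 and 3, A375 parental Dox replicates 1 to 3 and A375 parental noDox replicates 1 and 2, at 0.0599 to 0.0981.

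CDH2 had 108 to 116 CPM in A375 against 35.8 to 83.1 CPM in A549 (1.31, SE 0.15, FDR = 2.7e-06). Without the library labelled A549 parental noDox 2 its log2 fold change was 1.55. VIM was high in both lines, at 1598 to 1877 CPM and 1048 to 1241 CPM (0.61, SE 0.050, FDR = 1.1e-07), just past 1.5-fold. CTNNB1 passed the FDR threshold at less than 1.5-fold (0.29, SE 0.050, FDR = 0.000133). The A549 parental libraries thus held CDH1 together with CDH2, VIM and ZEB1, and bulk RNA does not show whether the same cells held them.

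Over all genes 31.6% were called higher and 27.9% lower in A375, and the pathway lists are read beside these shares. Tight junction genes were higher for 3 and lower for 20 of 31, desmosome genes higher for 0 and lower for 7 of 8, and TGF-beta pathway genes higher for 5 and lower for 21 of 36. Their median log2 fold changes were -1.84, -1.65 and -0.75, against 0.062 over all genes. Beta-catenin target and partner genes were higher for 4 and lower for 10 of 17. Other lists were divided. Adherens junction genes were higher for 7 and lower for 9 of 20, epithelial keratins and surface markers for 7 and 8 of 16, factors that keep epithelial genes on for 3 and 5 of 11, and intermediate filament and mesenchymal surface genes for 8 and 9 of 22. Stability and co-repressor genes of Snail, Twist and ZEB were higher for 4 and lower for 6 of 22. Other EMT transcription factors were higher for 7 and lower for 3 of 17, and beta-catenin turnover genes for 5 and 1 of 19.

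To compare genes with each other, CPM was divided by the length of all annotated exons in kb. In A375 parental cells the order of the median levels per kb, from the highest, was VIM (332), CTNNB1 (29.8), CDH2 (22.8), SNAI1 (14.99), TJP1 (7.14), TWIST1 (3.81), ZEB1 (3.09), ZEB2 (0.995), SNAI2 (0.525) and CDH1 (0.0154 CPM per kb). Only the neighbours TWIST1 and ZEB1 overlapped in their ranges over the 6 libraries. SNAI1 was therefore the most abundant of the 5 EMT transcription factors per length in A375.

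In A549 parental cells the order was VIM (212), CTNNB1 (22.6), TJP1 (21.0), CDH1 (10.1), CDH2 (7.76), ZEB1 (3.30), SNAI1 (1.72), TWIST1 (0.669), ZEB2 (0.346) and SNAI2 (0.185 CPM per kb). There the ranges overlapped between CTNNB1 and TJP1, between CDH1 and CDH2, and between each neighbouring pair from SNAI1 to SNAI2. ZEB1 stood at the head of the EMT transcription factors and above the range of SNAI1. The length of the longest transcript in place of all exons raised some levels by over 1.5 times, in A375 to 642 for VIM, 72.7 for CTNNB1 and 2.60 for ZEB2. With it the order in A375 was unchanged, CTNNB1 and TJP1 no longer overlapped in A549, and in A549 ZEB2 (0.904) came before TWIST1 (0.816 CPM per kb).

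**Figure D4:**
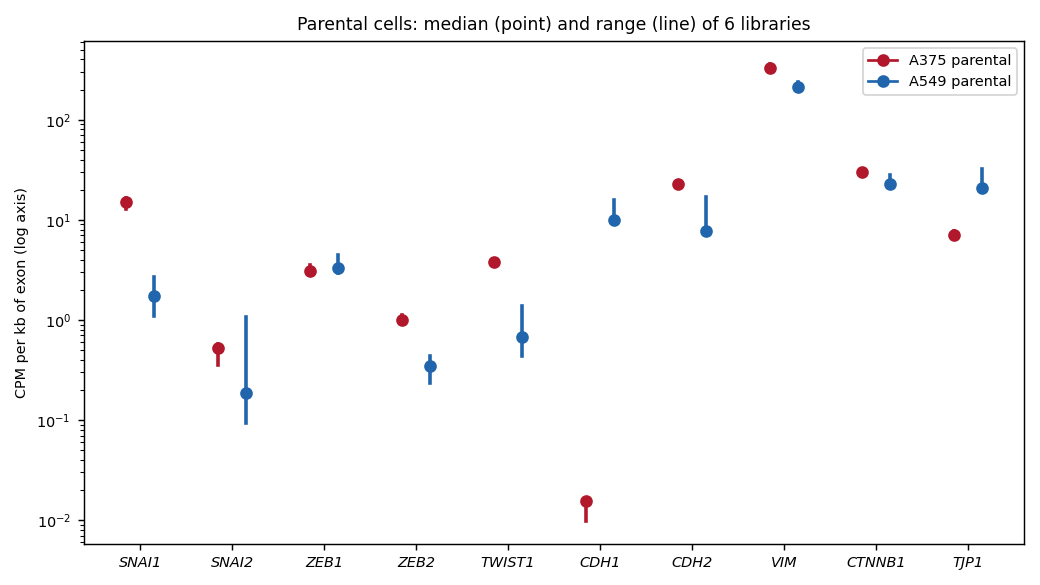
Median (point) and range (line) over the 6 parental libraries of each line, in CPM per kb of exon on a log axis. CDH1 lies near 0.015 in A375 and near 10 in A549, SNAI1 leads the transcription factors in A375, and ZEB1 leads them in A549.

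The genes lie at different loci (GENCODE 29, GRCh38): CDH1 at chr16:68737225-68835548, CDH2 at chr18:27950966-28177446, VIM at chr10:17228259-17237593, SNAI1 at chr20:49982999-49988886, ZEB1 at chr10:31318495-31529814, ZEB2 at chr2:144364364-144524583, TWIST1 at chr7:19020991-19117672, CTNNB1 at chr3:41194741-41260096 and TJP1 at chr15:29699367-29968865. Of the exonic bases of VIM, 12.4% were shared with VIM-AS1 and 12% with AL133415.1, both on the other strand. Exons of genes on the other strand covered 5.18% of ZEB2 (ZEB2-AS1), 4.23% of ZEB1 (ZEB1-AS1), 6.94% of TWIST1, 5.62% of CDH1 and 2.75% of CDH2. The strand setting of the counting is not given in the sources used here, so reads of the partners cannot be told apart from reads of these genes in those bases.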

How the data were processed

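RNA of 24 libraries was sequenced, and per the labels' processing notes the authors used bcl2fastq 2.19, Trimmomatic, STAR 2.7.1, featureCounts and GRCh38.p10. A strand setting is not given in the sources used here. The authors deposited raw counts per gene for each library, whole numbers under Ensembl identifiers, of which 21349 of 21386 were found in GENCODE 29. Groups came from the labels. The members and gene lists were chosen with earlier results of these data known. All 10 members are named, and of the lists each count and the called genes with the largest changes, up to 6 per list, except that 1 of them is not reported here. Genes most like a member were to be named for members called in A375 shMCM7 cells with Dox, of which there were 0.

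Each comparison was fitted across all genes with edgeR 4.0.16 in R 4.3.3 (TMM, filterByExpr, glmQLFit, glmQLFTest, two-sided, Benjamini-Hochberg FDR, prior count 0.125), on the libraries of its groups. The steps were tested on simulated data. A floor of 3 counts covers counting error only. Alternatives were DESeq2 1.42.0, its size factors, no filter, at least 10 counts in every library, all 12 libraries of a line, the replicate number as a block, and leaving out libraries. Leaving out A375 shMCM7 noDox replicate 1 from the list counts was added after seeing the data. No 2 replicates were alike within sampling noise. Replicate numbers paired the libraries most clearly in the noDox comparison of A375 shMCM7 with parental cells. There, libraries with the same number deviated together across genes (r = 0.318, 0.212 and 0.341). In A375 shMCM7 cells with and without Dox all 3 same-numbered pairs also correlated best with each other, more weakly (r = 0.256, 0.0881 and 0.235).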

Additional observations from a re-analysis of the deposited data

Results flagged for a closer look

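For 3 of the 10 genes the Dox effect in A375 shMCM7 cells differed from that in parental cells by the interaction test of edgeR. At the same FDR threshold 30.0% of all 16334 genes differed, so the share of the members was that of the background. The difference on the log2 scale was -0.51 for SNAI1, 0.40 for ZEB2 and 0.23 for CDH2. SNAI1 was lower with Dox in all 3 shMCM7 libraries than in any shMCM7 noDox library and higher with Dox in all 3 parental libraries than in any parental noDox library. For ZEB2 and CDH2 the shMCM7 Dox libraries lay above the shMCM7 noDox libraries, and the parental groups overlapped. Without any single library the difference ranged from -0.56 to -0.44 for SNAI1, 0.34 to 0.45 for ZEB2 and 0.21 to 0.26 for CDH2. Part of the SNAI1 difference comes from the parental cells, where its estimate with Dox was 0.18 and did not pass. Outliers within groups were not tested, since each group has 3 libraries.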

How the results depend on the processing

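Of 1084 alternative estimates of the members' log2 fold changes, 1001 kept their direction and their side of the FDR threshold, 19 newly passed it, 16 no longer passed it and 48 changed sign. None of the sign changes were in the comparisons of A375 shMCM7 cells. DESeq2 called 2 genes in A375 parental cells with Dox and 9 in A549 parental cells, and the count of members with a differing Dox effect was 5. The replicate block called 12 genes in A375 parental cells and, in A375 shMCM7 against parental cells without Dox, 484 genes with 4 members past the FDR threshold. In A375 shMCM7 cells, where all 3 same-numbered pairs correlated best with each other but 1 of the 3 correlations was under 0.1 (0.0881), the block moved the members past the FDR threshold from 6 to 7, by SNAI2 (FDR = 0.0278). No share of all genes past the FDR threshold is given for these A375 fits or for those without single libraries below. Their member counts cannot be read against a background. Leaving out the A549 libraries against their label gave 1569 called genes (11.2% of 14023), 2 called members and 3 members past the FDR threshold, where 21.2% of all genes passed. These counts are no test of the knock-down, since the libraries were chosen by their MCM7 level. It came with changed signs for CDH2 (0.79), SNAI2 (1.53) and TWIST1 (0.058) in shMCM7 cells and SNAI1 (-0.12) in parental cells. In A375 parental cells CDH1 was -0.0080 by DESeq2, -5.7e-05 with no filter and -0.0063 with the block, and TWIST1 was 0.00035 with DESeq2's size factors, 0.0011 by DESeq2 and 0.0025 with all 12 libraries. With parental cells with Dox only, ZEB1 was 0.068 between the lines. The cause of these changes was not tested.

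Without any single library there were 0 to 1 called members in A375 shMCM7 cells, 0 to 1 in shMCM7 against parental cells with Dox, 2 to 5 members with a differing Dox effect (2 without parental Dox replicate 2, 5 without shMCM7 Dox replicate 1 or parental Dox replicate 1), 0 to 1 called genes in A375 parental cells, 173 to 321 called genes and 0 to 1 members past the FDR threshold in shMCM7 against parental cells without Dox (173 and 177 without parental noDox replicates 2 and 3), and 0 to 300 called genes in A549 parental cells (300 without noDox replicate 3). Signs changed in A375 parental cells for CDH1 (-0.12 to 0.18), CTNNB1 (-0.013 to 0.049), SNAI2 (-0.028 to 0.30), TJP1 (-0.032 to 0.051), TWIST1 (-0.036 to 0.058) and VIM (-0.084 to 0.026), in A549 parental cells for SNAI1 (-0.10 to 0.57) and ZEB2 (-0.18 to 0.23), and in A549 shMCM7 cells for CDH2 (-0.36 to 0.33), CTNNB1 (-0.025 to 0.078), SNAI1 (-0.39 to 0.086), SNAI2 (-0.84 to 0.69), TJP1 (-0.12 to 0.26), VIM (-0.078 to 0.11), ZEB1 (-0.027 to 0.18) and ZEB2 (-0.13 to 0.19). At least 10 counts in every library removed CDH1 and SNAI2 from the comparison of the lines. In A549 the depth limits what can be said of SNAI1, SNAI2 and TWIST1.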

Other observations

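The pathway genes named above for A375 were also read library by library in A549, as values with no test. In the libraries labelled parental noDox 2, shMCM7 Dox 3 and shMCM7 noDox 2, 11 of these 41 genes lay above the range of the other 9 libraries, 7 lay below it and 23 overlapped. Of the 13497 genes with a mean of at least 10 counts, 39.0% lay outside that range, so the share of the 41 was not far above the background. No such filter was applied to the 41, of which KRT14 had 0 to 1 and CDH5 1 to 5 counts per A549 library. The receptor gene TGFBR2 was at 566, 607 and 532 CPM, against 176 to 242 CPM in the other 9. The actin-binding TAGLN was at 67.2, 97.3 and 90.9 CPM, against 12.2 to 17.7 CPM, and the receptor kinase gene AXL at 556, 596 and 636 CPM, against 307 to 376 CPM. Each of these rose in A375.

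Among junction genes, F11R was at 52.7, 49.2 and 48.0 CPM, against 63.6 to 95.7 CPM, and LSR at 4.39, 8.93 and 5.29 CPM, against 14.5 to 22.7 CPM. The desmosome gene PKP3 was at 7.90, 13.3 and 12.9 CPM, against 21.3 to 36.7 CPM. These 3 genes fell in A375. AXIN2, a feedback target of beta-catenin that fell in A375, went the other way, with 15.1, 19.4 and 17.1 CPM against 9.54 to 13.4 CPM.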
